A study of Oryzias latipes with 6 samples.

Results

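Hearts in which AXER was lost while an active form of ATF6α was present are described here. The 6 libraries of AXER-/-, ATF6(N/+) hearts, called [KO + ATF6α(N)] medaka, were compared with the 6 libraries of AXER+/+, ATF6(N/+) hearts, called [WT + ATF6α(N)] medaka. These 12 libraries, of 36 in the series, were chosen by the genotype in the labels, and the question was which transcripts AXER loss changed when ATF6α(N) was active on both sides. All were RNA-seq libraries of whole hearts of medaka (Oryzias latipes) embryos at 5 days post fertilization (dpf), and both genotypes carried 1 allele of ATF6α(N) and intact XBP1. The labels name the strain of all groups as HdrR, whereas the methods name cab. The other 24 libraries, 6 per genotype, were from AXER+/+ (WT) and AXER-/- (KO) hearts with no added factor and from AXER+/+ and AXER-/- hearts carrying 1 allele of XBP1(S), and AXER loss in these hearts is given beside the main comparison.

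AXER (SLC35B1) is a carrier in the membrane of the endoplasmic reticulum (ER) that brings ATP in and takes ADP out, and chaperones such as BiP need that ATP to fold proteins. When unfolded proteins accumulate, the sensors PERK, IRE1 and ATF6 start the unfolded protein response. ATF6 is cut to free its N-terminal part, a transcription factor that raises ER chaperones, and IRE1 splices XBP1 mRNA to make XBP1(S), a transcription factor for folding and ER-associated degradation.

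The AXER-/- medaka derive from 1 mutant line made with TALENs in exon 1 of the gene. The ATF6α(N) allele was made by genome editing at the ATF6α locus itself, by removing the luminal and most of the transmembrane part, so the active factor was present throughout the body from fertilization and not only in the heart. Hearts were sequenced together with their blood, whose nucleated red cells also contribute RNA. In such bulk samples, fewer cells of a type and less RNA per cell cannot be told apart. Each genotype was deposited as 1 table with 6 unnumbered library columns, and the sources do not say whether the 6 came from separate hearts, clutches or extractions, so p-values measure the spread between libraries, which may be technical. The columns are numbered 1 to 6 here from left to right, as names only.

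The tables give medaka transcript identifiers, and 0 of 37495 matched the gene names used here. The values are therefore per transcript, no pathway or marker list could be followed, and the levels of AXER, ATF6α, heart markers and red cell genes were not looked up. Identifiers are printed for 4 transcripts, the 2 that rose most and the 2 that fell most among those without overlap between the genotypes, and other transcripts are described by their values. Levels are in CPM, the count of a transcript relative to the TMM-normalized size of the library, with no correction for transcript length, so they compare 1 transcript between libraries.

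Depth was 2692071 to 11455186 estimated reads per library in [KO + ATF6α(N)] hearts and 3532413 to 10257903 in [WT + ATF6α(N)] hearts. Mean depth was not distinguishable between the genotypes (exact permutation test over all 924 splits of 6 against 6, two-sided, p = 0.706), and neither was the number of transcripts detected (exact permutation p = 0.768). The 10 most abundant transcripts of each library took 21.8 ± 2.93% of reads in [KO + ATF6α(N)] hearts and 18.7 ± 1.66% in [WT + ATF6α(N)] hearts (SD, n = 6; exact permutation p = 0.0476, 0.19 after adjustment over 4 such tests). On the first principal component of the 12 libraries, with 15.8% of the variance, [KO + ATF6α(N)] library 1, the shallowest, stood apart from the other 11. On the second, with 12.2%, [KO + ATF6α(N)] library 4 lay at one end. No pair of libraries within either genotype differed by as little as counting noise (lowest chi-square per degree of freedom, 7.35).

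AXER loss raised 84 transcripts and lowered 25 in hearts carrying ATF6α(N), which was 0.465% and 0.138% of the 18076 transcripts tested. A call required an adjusted p under 0.05 in edgeR's quasi-likelihood test and a fold change above 1.5. The raised transcripts were at a median of 31.3 CPM in [WT + ATF6α(N)] hearts and 59.7 CPM in [KO + ATF6α(N)] hearts. The fallen ones were at a median of 70.5 CPM and 39.4 CPM in the same order. At an unadjusted p under 0.05, 1197 transcripts (6.62%) differed, 631 of them higher and 566 lower.

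**Figure D1:**
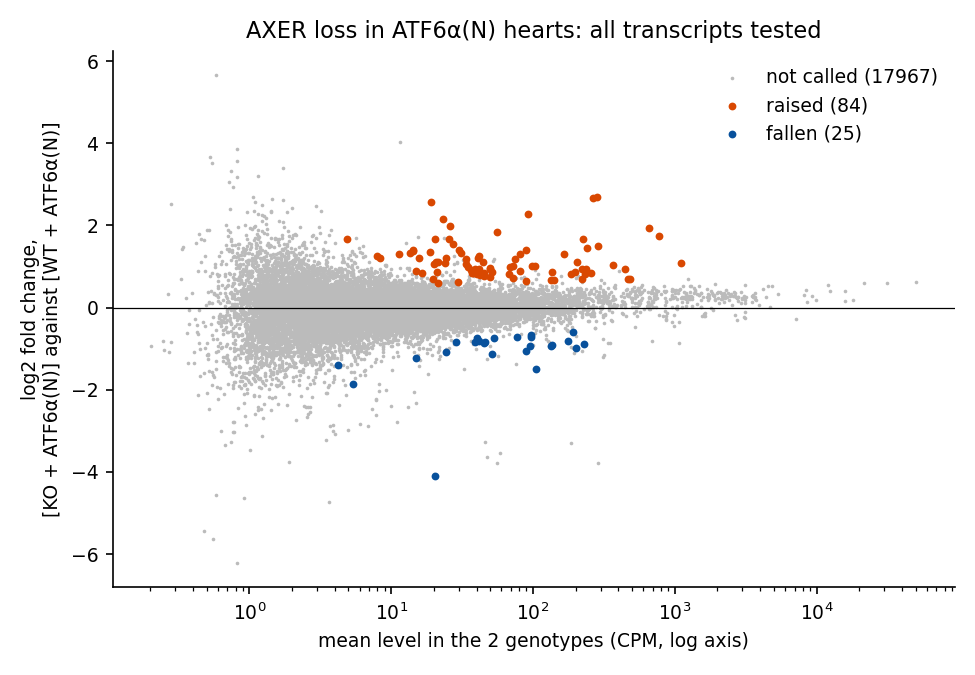
Log2 fold change of each of the 18076 transcripts between [KO + ATF6α(N)] and [WT + ATF6α(N)] hearts (vertical axis), against its mean level in the 2 genotypes in CPM (horizontal log axis). Orange points are the 84 raised transcripts, blue points the 25 fallen ones and grey points the rest, and the grey points above 1000 CPM lie mostly above 0.

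The changes were of moderate size. Of the 84 raised transcripts, 5 rose more than 4-fold, 41 rose 2-fold to 4-fold and 38 rose less than 2-fold, and their median log2 fold change was 1.05. Of the 25 fallen transcripts, 8 fell more than 2-fold and 17 less, with a median log2 fold change of -0.88. Over all transcripts tested the median was -0.02.

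Library by library, the separation was as follows. For 72 of the 84 raised transcripts every [KO + ATF6α(N)] library was above every [WT + ATF6α(N)] library, a pattern seen in 0.819% of all transcripts. For 20 of the 25 fallen ones every [KO + ATF6α(N)] library was below, a pattern seen in 0.409%. These shares describe transcripts that the same libraries had picked.

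Relative to its mean, the spread of a raised transcript between libraries was 15.9% at the median in [KO + ATF6α(N)] hearts and 18.7% in [WT + ATF6α(N)] hearts (SD over mean, n = 6). Over all transcripts tested it was 34.0% and 33.2%. A call favours a small spread, and the raised transcripts were more abundant. Their median in [WT + ATF6α(N)] hearts was 31.3 CPM, against 8.03 CPM for all, so the comparison was not matched for level. Within [KO + ATF6α(N)] hearts, library 4 held the lowest level of 33 of the 84 raised transcripts, and library 1 the highest level of 26. Leaving out both of these libraries, an alternative chosen after seeing the data, changed the number of fallen transcripts from 25 to 16, and leaving out library 1 alone also gave 16.

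The share of transcripts called raised was larger in each higher class of abundance, whereas the share called fallen was largest between 50 and 200 CPM. Under 10 CPM (mean of the 2 genotypes), 3 of 10271 transcripts were raised and 2 fallen. Between 10 and 50 CPM the numbers were 43 and 9 of 5867, and between 50 and 200 CPM they were 20 and 12 of 1441. Above 200 CPM, 18 of 497 were raised, a share of 3.62% against 1.39% between 50 and 200 CPM. There 2 were fallen, a share of 0.402% against 0.833%. The median standard error of the log2 fold change was 0.52 in the lowest class and 0.17 in the highest, so changes of similar size would often not be detectable in low transcripts. Between 50 and 200 CPM it was 0.16, so it was not smaller in the highest class than there.

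Levels of abundant transcripts also shifted as a body. The median log2 fold change was -0.06 under 10 CPM, 0.19 between 200 and 1000 CPM and 0.26 above 1000 CPM, where 141 of 158 transcripts (89.2%) were above 0. Without a factor, KO against WT hearts, the same 2 upper classes had medians of 0.02 and 0.03, with 55.2% and 69.0% of transcripts above 0, against 77.6% and 89.2% with ATF6α(N). The 17 raised transcripts between 200 and 1000 CPM had a median log2 fold change of 1.03 and the 1 above 1000 CPM rose by 1.08. The part of this shift, and of the higher share taken by the 10 most abundant transcripts, in the calls was not tested. When libraries were scaled to their totals alone, the median of all transcripts moved to -0.22, and the calls divided into 53 raised and 43 fallen in place of 84 and 25. The 84 then had a median of 0.85 and the 25 a median of -1.08.

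The transcript with the largest rise was ENSORLT00000009120.2, followed by ENSORLT00000009162.2. In [WT + ATF6α(N)] hearts, ENSORLT00000009120.2 ranged from 66.3 to 85.5 CPM with a median of 76.1. In [KO + ATF6α(N)] hearts it ranged from 418 to 529 CPM with a median of 511. The groups were far from overlapping, and each library with AXER lost held more than 4 times the level of any library with AXER present. It rose by 2.70 on the log2 scale (SE, standard error, 0.13, adjusted p = 6.93e-19, edgeR).

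ENSORLT00000009162.2 ranged from 62.2 to 85.8 CPM (median 72.5) in [WT + ATF6α(N)] hearts and from 394 to 509 CPM (median 474) in [KO + ATF6α(N)] hearts. It rose by 2.66 on the log2 scale (SE 0.13, adjusted p = 1.06e-18, edgeR). The pair moved together library by library, and the ratio of the first to the second stayed between 0.956 and 1.199 over all 36 libraries. Estimates of both were fractional in some libraries, which salmon gives when reads fit more than 1 transcript, so their reads may be shared with each other or with further transcripts.

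**Figure D2:**
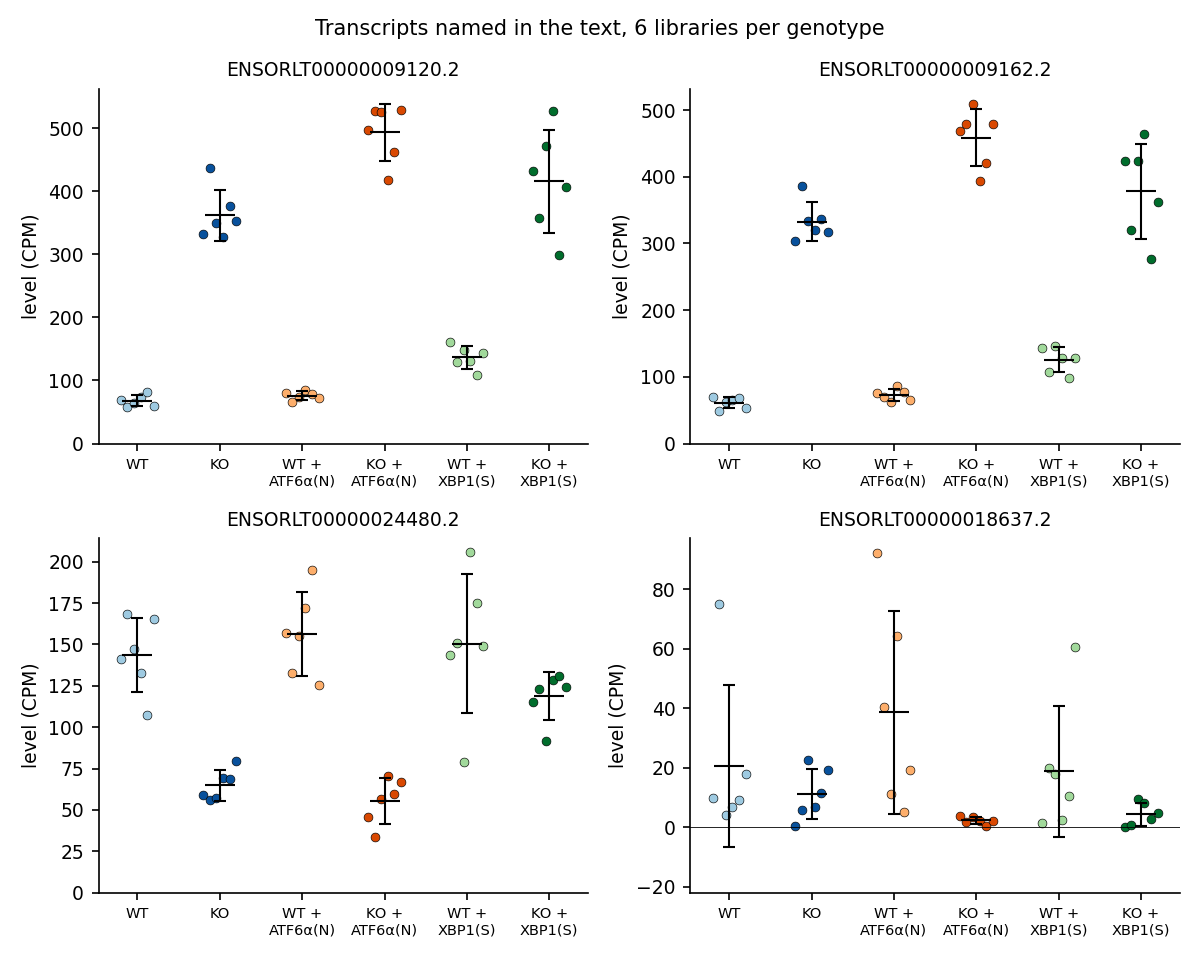
Levels of the 4 transcripts named by identifier in CPM (vertical axes, linear) in each of 6 libraries of the 6 genotypes (points), with the mean and SD (black, n = 6). ENSORLT00000009120.2 and ENSORLT00000009162.2 were high in all 3 genotypes without AXER, and ENSORLT00000024480.2 was lowest in KO and [KO + ATF6α(N)] hearts. On this linear scale, ENSORLT00000018637.2 was spread more widely in the genotypes with AXER than in those without, which does not hold for ratios of highest to lowest.

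The most abundant raised transcript was at 708 ± 62.2 CPM in [WT + ATF6α(N)] hearts and 1496 ± 263 CPM in [KO + ATF6α(N)] hearts (SD, n = 6). Its libraries did not overlap either, at 637 to 800 CPM against 1220 to 1951 CPM. It rose by 1.08 on the log2 scale (SE 0.15, adjusted p = 7.61e-06, edgeR).

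Of the transcripts named by their fall, ENSORLT00000024480.2 showed the tighter measurement. It ranged from 125.3 to 195 CPM (median 156) in [WT + ATF6α(N)] hearts and from 33.4 to 70.8 CPM (median 58.2) in [KO + ATF6α(N)] hearts. Every library with AXER lost was well below every library with AXER present. It fell by 1.49 on the log2 scale (SE 0.17, adjusted p = 1.04e-07, edgeR).

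The most abundant fallen transcript fell less, from 296 ± 37.1 CPM to 160 ± 19.4 CPM (SD, n = 6). Its libraries lay at 258 to 344 CPM with AXER and at 138 to 188 CPM without. The log2 fold change was -0.88 (SE 0.14, adjusted p = 7.82e-05, edgeR).

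ENSORLT00000018637.2 had the largest fall and the least certain one. In the 6 [WT + ATF6α(N)] libraries, in column order, it was at 92.2, 40.3, 11.1, 64.1, 5.02 and 19.2 CPM, and in the 6 [KO + ATF6α(N)] libraries at 3.69, 1.88, 3.54, 2.26, 0.351 and 2.26 CPM. The groups did not overlap, but within each genotype the highest and lowest libraries differed by more than 10-fold, and the lowest value without AXER rested on 2 counts. The log2 fold change was -4.09 (SE 0.96, adjusted p = 0.0321, edgeR), and the adjusted p was between 0.0536 and 0.113 when any 1 of [KO + ATF6α(N)] libraries 1 to 6 or of [WT + ATF6α(N)] libraries 1, 2 and 4 was left out. Without a factor the transcript was at 4.09 to 75.1 CPM in WT hearts and 0.378 to 22.6 CPM in KO hearts, which overlap (log2 fold change -0.93, SE 0.83).

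This transcript moved together with some others that were not called. Among transcripts of at least 10 CPM, 8 had a log2 fold change under -2.5 without a call, between -4.05 and -2.78, with standard errors of 0.91 to 1.73. Their summed level was 2947, 1212, 448, 2517, 65.8 and 673 CPM in [WT + ATF6α(N)] libraries 1 to 6 and 46.1 to 169.5 CPM in [KO + ATF6α(N)] libraries, so [WT + ATF6α(N)] libraries 1, 2 and 4 were high and library 5 was low, as for ENSORLT00000018637.2. Across the 36 libraries, the log2 level of ENSORLT00000018637.2 correlated with those of the 8 with Pearson coefficients of 0.0812 to 0.952. Their median was 0.88, with 3 above 0.9, over points that share genotype and depth, against a median of 0.00130 over all transcripts. The 8 were chosen by their fall in the ATF6α(N) libraries, where ENSORLT00000018637.2 fell too, which favours positive coefficients. High sums were also found in single libraries of other genotypes with AXER, 3974 CPM in WT library 2 and 2981 CPM in the sixth library of WT hearts with XBP1(S). The highest sums without AXER were 937 CPM in KO library 3 and 627 CPM in library 2 of KO hearts with XBP1(S). Both were above [WT + ATF6α(N)] libraries 3 and 5 and above WT libraries 1, 3, 4, 5 and 6. Which cells express these transcripts was not looked up, and their part in the fall was not tested.

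Most transcripts raised by AXER loss with ATF6α(N) were also raised by it without a factor. KO against WT hearts, which share no library with the main comparison, gave 79 raised and 37 fallen transcripts (0.437% and 0.205% of those tested). Of these, 63 raised and 16 fallen were called in both backgrounds, all 79 in the same direction. The shared ones made up 75.0% of the raised with ATF6α(N) and 79.7% of the raised without a factor, and 64.0% and 43.2% of the fallen.

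Read in the libraries without a factor, all 84 transcripts raised with ATF6α(N) were above 0, where 50.9% of all transcripts were, and 82 were higher at an unadjusted p under 0.05, where 3.13% of all were. Their median log2 fold change there was 0.89. All 25 fallen ones were below 0, where 49.1% of all were, and 22 were lower at an unadjusted p under 0.05, where 2.80% of all were, with a median of -0.87. KO libraries all lay above WT libraries for 55 of the 84 (0.581% of all transcripts) and all lay below for 13 of the 25 (0.398% of all). The WT and KO libraries had no part in choosing these transcripts apart from the filter on low counts and the common estimate of spread.

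The converse also held. The 79 transcripts raised without a factor had a median log2 fold change of 0.93 there and 0.98 in hearts with ATF6α(N), where all 79 were above 0 (47.5% of all transcripts were) and 71 were higher at an unadjusted p under 0.05 (3.49% of all). The 37 fallen without a factor had a median of -0.92 there and -0.68 with ATF6α(N), where 36 were below 0 (52.5% of all) and 32 were lower at an unadjusted p under 0.05 (3.13% of all). Over all transcripts tested, the Pearson coefficient between the log2 fold changes of the 2 comparisons was 0.22 across transcripts, which are not independent replicates.

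**Figure D3:**
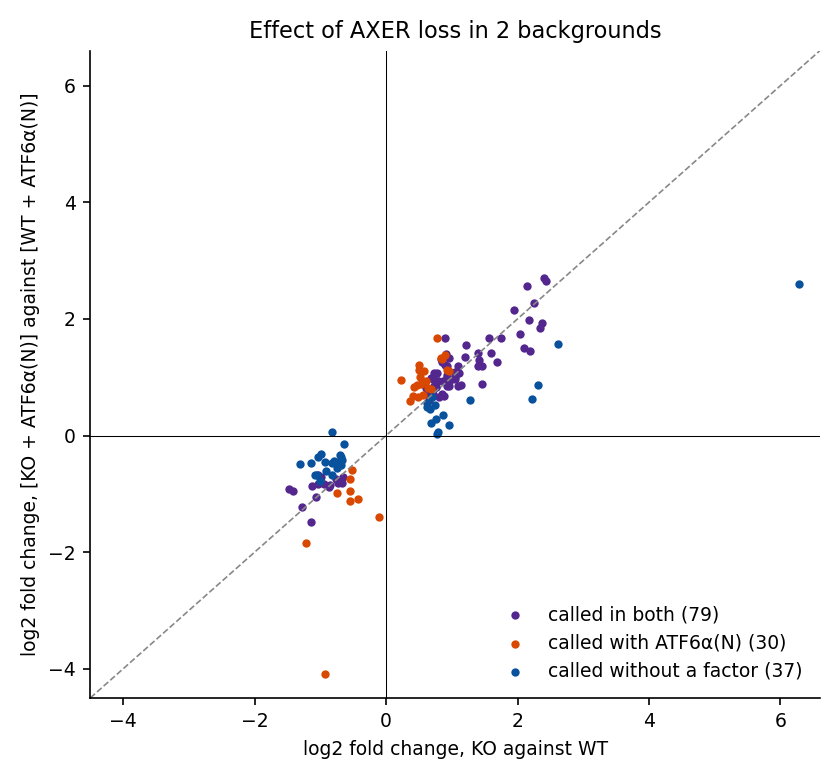
Log2 fold change on AXER loss with ATF6α(N) (vertical axis) against that without a factor (horizontal axis) for the 146 transcripts called in either comparison. Purple points are the 79 called in both, orange points the 30 called with ATF6α(N) and blue points the 37 called without a factor, and the dashed line marks equal effects.

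The difference between the backgrounds was tested directly. No transcript was called for a difference in the effect of AXER loss between hearts with ATF6α(N) and hearts without a factor (0 of 18076, 0%, edgeR's quasi-likelihood test of the interaction), and DESeq2 and limma-voom also called 0. At an unadjusted p under 0.05 edgeR gave 503 transcripts (2.78%), DESeq2 652 and limma-voom 754. Among the 84 raised transcripts 7 were under that unadjusted limit, 5 with the larger rise in ATF6α(N) hearts and 2 with the smaller, and among the 25 fallen 4 were.

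The precision of this difference varied. Its 95% interval lay within a 2-fold change in either direction for 67 of the 84 transcripts that rose and 20 of the 25 that fell, against 32.7% of all transcripts. It lay within a 1.5-fold change for 25 raised and 7 fallen ones, against 1135 of all 18076 transcripts. A call favours a small standard error, and the called transcripts were not matched to the others for level.

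The 21 transcripts that were called raised only with ATF6α(N) had a median log2 fold change of 0.94 there and 0.56 without a factor, and the 16 called raised only without a factor had 0.50 and 0.78 in the same order. Of the first, 3 had an unadjusted interaction p under 0.05, and of the second 7 had, while no adjusted p was under 0.999 in edgeR's test. Over all transcripts 2.78% had such an unadjusted p. The sets were chosen by calls from the libraries that the interaction uses, which favours differences in these directions. The effect was larger with ATF6α(N) for all 21 of the first and 0 of the second. The 9 called fallen only with ATF6α(N) had medians of -1.09 and -0.55. A call in one background and not in the other was therefore not a measured difference for any of them.

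The raised transcript with the smallest unadjusted interaction p was 1 of a pair that ATF6α(N) had also raised in hearts with AXER. It was at 110 to 149 CPM in [WT + ATF6α(N)] hearts and 259 to 398 CPM in [KO + ATF6α(N)] hearts, which was a rise of 1.45 on the log2 scale (SE 0.14, adjusted p = 1.90e-09, edgeR). Without a factor it was at 54.5 to 89.2 CPM in WT hearts and 245 to 453 CPM in KO hearts, a rise of 2.19. The levels without AXER overlapped between backgrounds, whereas with AXER the ATF6α(N) libraries were all higher.

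The difference of the effects was -0.74 on the log2 scale (95% interval -1.14 to -0.35, unadjusted p = 0.000461, adjusted p = 0.999, edgeR). The other of the pair rose by 1.51 with ATF6α(N) and by 2.10 without a factor, a difference of -0.59 (95% interval -0.99 to -0.20, unadjusted p = 0.00411, edgeR). Both also had fractional estimates. These were the only transcripts called for ATF6α(N) in hearts with AXER, a comparison that shares the [WT + ATF6α(N)] libraries with the difference, so the values are not independent.

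ENSORLT00000009120.2 and ENSORLT00000009162.2 lay on the other side. ENSORLT00000009120.2 rose by 2.70 with ATF6α(N) and by 2.41 without a factor, a difference of 0.29 (95% interval -0.06 to 0.63), and ENSORLT00000009162.2 by 2.66 and 2.44, a difference of 0.22 (95% interval -0.13 to 0.57). For neither was the difference distinguishable from 0. ENSORLT00000024480.2 fell by 1.49 and by 1.15, a difference of -0.34 (95% interval -0.82 to 0.14).

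The sum over the raised transcripts gives their level in each library. In [WT + ATF6α(N)] hearts the 84 summed to 5911 to 6608 CPM and in [KO + ATF6α(N)] hearts to 12970 to 15180 CPM. In WT hearts they summed to 5552 to 6962 CPM and in KO hearts to 11907 to 14837 CPM. Thus WT and [WT + ATF6α(N)] hearts overlapped with each other, as did KO and [KO + ATF6α(N)] hearts. The mean sum was 12870 ± 1226 CPM in KO hearts and higher, 14357 ± 812 CPM, in [KO + ATF6α(N)] hearts (SD, n = 6). It was 6160 ± 502 CPM in WT hearts and 6315 ± 282 CPM in [WT + ATF6α(N)] hearts. These differences between backgrounds were not tested. The libraries with ATF6α(N) had chosen the raised and the fallen transcripts, which favours the separation of the sums within those libraries.

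The 25 fallen transcripts summed to 2435 to 2848 CPM and 1292 to 1567 CPM in [WT + ATF6α(N)] and [KO + ATF6α(N)] hearts, and to 2432 to 2865 CPM and 1343 to 1659 CPM in WT and KO hearts.

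**Figure D4:**
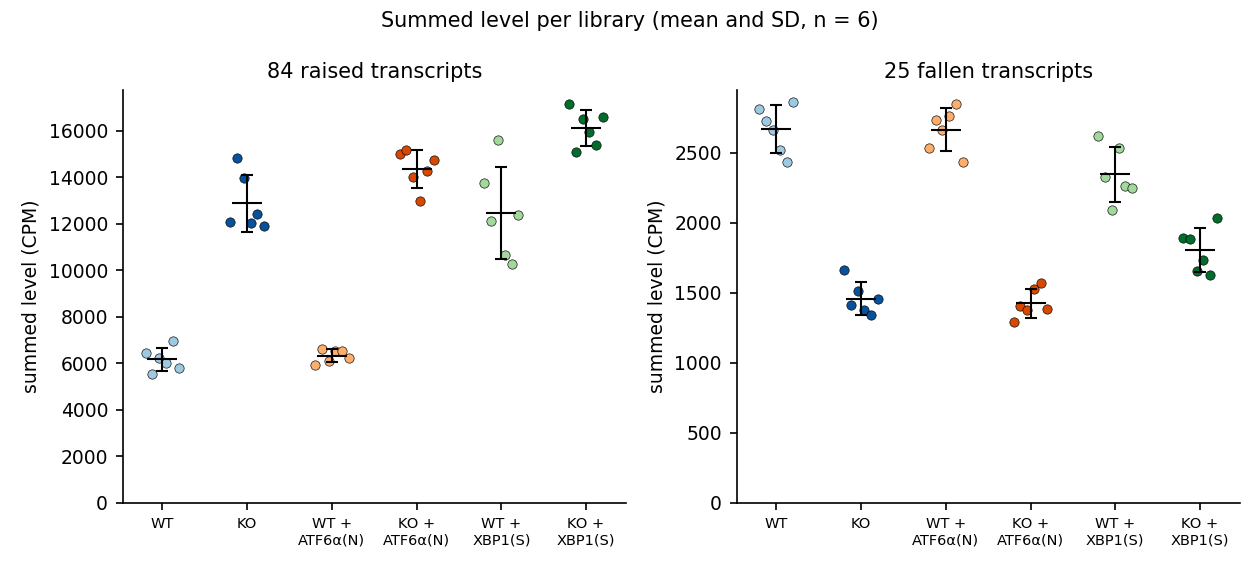
Summed level in CPM (vertical axes, from 0) of the 84 raised (left) and 25 fallen transcripts (right) in each library (points) of the 6 genotypes, with the mean and SD (black, n = 6). Libraries of [WT + ATF6α(N)] hearts overlap in range with those of WT hearts, and libraries of [KO + ATF6α(N)] hearts with those of KO hearts. Hearts with XBP1(S) and AXER are at 10262 to 15577 CPM for the raised transcripts.

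The same 109 transcripts were then read for AXER loss in hearts carrying XBP1(S), in 12 libraries that the main comparison did not use. KO against WT hearts with XBP1(S) gave 21 raised and 12 fallen transcripts over the whole table (0.116% and 0.0664%), which included 18 of the 84 that rose with ATF6α(N) and 1 of the 25 that fell. The 84 had a median log2 fold change of 0.37, against 1.05 with ATF6α(N), and 68 of them were above 0, where 48.7% of all transcripts were. Their summed level was already higher with XBP1(S) in hearts with AXER, at 10262 to 15577 CPM against 5911 to 6608 CPM with ATF6α(N). Without AXER it was 15086 to 17141 CPM with XBP1(S) and 12970 to 15180 CPM with ATF6α(N). In hearts with AXER, XBP1(S) had raised 46 of the 84, and the share it raised over all transcripts is not given here. The 46 had a median log2 fold change of 0.22 on AXER loss with XBP1(S), against 0.55 for the other 38. The XBP1(S) libraries with AXER helped choose the 46 and are also the baseline of this effect, which favours a smaller rise for them. The difference between the effects with ATF6α(N) and with XBP1(S) had a median of 0.68 over the 84 (79 above 0). Over all transcripts tested its median was 0.0009. When libraries were scaled to their totals alone, these medians were 0.29 (67 above 0) and -0.37, so both moved down. The 25 had a median log2 fold change of -0.36 with XBP1(S), against -0.88 with ATF6α(N), and 22 were below 0, where 51.3% of all were. The values with ATF6α(N) are those that chose the transcripts. The hearts with XBP1(S) and no AXER were the shallowest, at 1850805 to 4728592 estimated reads per library.

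**Figure D5:**
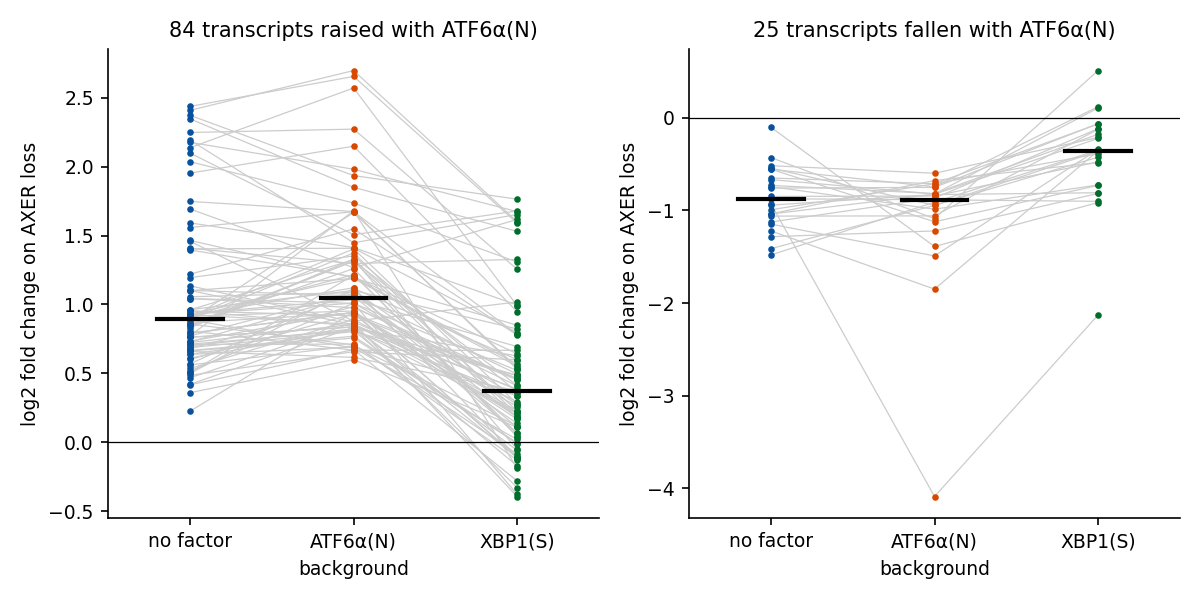
Log2 fold change on AXER loss (vertical axes) of the 84 transcripts raised (left) and 25 fallen (right) with ATF6α(N), in hearts with no factor (blue), ATF6α(N) (orange) and XBP1(S) (green). Grey lines join 1 transcript and black bars are medians, at 0.89, 1.05 and 0.37 for the raised and -0.87, -0.88 and -0.36 for the fallen, and the orange points had chosen the transcripts.

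The difference between the effects with ATF6α(N) and with XBP1(S), a comparison added after seeing the data, was called for 10 transcripts (0.0553%, edgeR's quasi-likelihood test), and 1740 (9.63%) were under an unadjusted p of 0.05. All 10 belonged to the 109, with 9 raised more with ATF6α(N) than with XBP1(S) and 1, ENSORLT00000024480.2, falling more with ATF6α(N). The difference uses the same ATF6α(N) libraries that chose the 109, which favours this membership and these directions. The 9 had log2 fold changes of 0.94 to 2.70 with ATF6α(N) and -0.12 to 1.60 with XBP1(S). All 9 were among the 46 that XBP1(S) had raised in hearts with AXER. The XBP1(S) libraries with AXER helped choose the 46 and also enter the difference, which favours this overlap and a gap in level with AXER. The median level of the 9 with AXER was 94.8 CPM with XBP1(S) and 34.1 CPM with ATF6α(N). Without AXER it was 163.8 CPM and 153.1 CPM in the same order. Each median was taken over the 9 within a genotype, so the medians do not follow any single transcript. Without AXER, single transcripts of the 9 differed in both directions. The most abundant of them averaged 1038 CPM with XBP1(S) and 589 CPM with ATF6α(N), whereas ENSORLT00000009120.2 averaged 415 and 493 CPM. The count was 5 without XBP1(S) library 1 with AXER, XBP1(S) library 2, 5 or 6 without AXER, ATF6α(N) library 1 or 4 with AXER, or ATF6α(N) library 1, 2 or 5 without AXER. It was 6 without XBP1(S) library 6 or ATF6α(N) library 3, 5 or 6 with AXER or XBP1(S) library 4 without AXER, and 16 without XBP1(S) library 5 with AXER. With libraries scaled to their totals alone it was 0, where the median of this difference over all transcripts was -0.37, while DESeq2 called 208 and limma-voom 11.

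ENSORLT00000009120.2 averaged 137 ± 18.3 CPM in WT hearts with XBP1(S), against 75.9 ± 6.72 CPM in [WT + ATF6α(N)] hearts (SD, n = 6). Without AXER it averaged 415 ± 81.2 CPM with XBP1(S) and 493 ± 44.9 CPM with ATF6α(N). It rose by 1.60 with XBP1(S) and by 2.70 with ATF6α(N), a difference of 1.10 (SE 0.17, adjusted p = 0.000746, edgeR).

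The clearest difference was in a transcript at 15.4 to 24.3 CPM in [WT + ATF6α(N)] hearts and 40.2 to 49.0 CPM in [KO + ATF6α(N)] hearts. With XBP1(S) it was at 59.6 to 93.6 CPM with AXER and 64.7 to 83.1 CPM without, so those groups overlapped. Its log2 fold change was 1.33 with ATF6α(N), 0.96 without a factor and -0.05 with XBP1(S). The difference between the first and the last was 1.38 (95% interval 1.00 to 1.76, adjusted p = 0.000121, edgeR).

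Of the 10, ENSORLT00000024480.2 was the one that fell. It averaged 151 ± 41.9 CPM with XBP1(S) and AXER and 118.9 ± 14.5 CPM with XBP1(S) and no AXER, against 156 ± 25.5 and 55.6 ± 13.9 CPM with ATF6α(N) (SD, n = 6). The difference of the effects was -1.15 on the log2 scale (SE 0.24, adjusted p = 0.0393, edgeR). The most abundant fallen transcript, in contrast, fell by 0.88 with ATF6α(N) and by 0.90 with XBP1(S), a difference of 0.02 (95% interval -0.38 to 0.41).

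Fractional estimates were common among the changed transcripts. Among the 109, 64 transcripts that rose and 16 that fell had an estimate that was not whole in at least 1 library, against 38.1% of all transcripts tested. This comparison was not matched for level. The median in [WT + ATF6α(N)] hearts was 31.3 CPM for the raised, 70.5 CPM for the fallen and 8.03 CPM for all transcripts. Reads of such transcripts may have been divided between isoforms or near-identical copies, so 1 gene can stand behind several of the 109. When transcripts with fractional estimates were removed before the fit, 12 transcripts were raised and 5 fallen.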

How the data were processed

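Whole hearts of 6 medaka genotypes at 5 dpf were sequenced by the Lasy-Seq protocol. Per the labels and methods, the authors trimmed reads with fastp 0.21.0 and used BWA 0.7.17-r1188 and salmon, and the deposited values are the estimated counts of salmon per transcript for 36 libraries. The labels name a mouse build and the methods a mouse reference, whereas the identifiers are of medaka transcripts, so the annotation release is not given in the sources used here. The labels and the methods also differ on the strain and on the RNA input. Of the estimated counts, 1.88% were not whole (tolerance 1e-06), and all were rounded.

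In R 4.3.3, filterByExpr by genotype kept 18076 of 37495 transcripts. Libraries were normalized by TMM, and edgeR 4.0.16 was fitted to all 36 libraries with 1 mean for each genotype (robust quasi-likelihood, Benjamini-Hochberg adjustment over all transcripts tested). Contrasts were AXER loss with ATF6α(N), without a factor and with XBP1(S), and the differences between them. Standard errors were the log2 fold change over the root of its F. Log2 levels used a prior count of 2. DESeq2 1.42.0 and limma 3.58.1 (limma-voom) were alternatives. The test was checked on simulated data.

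The genes that define the genotypes, members of gene lists, genes the study names and the largest changes without overlap between libraries were to be named. Without gene names the rule's fallback was followed, which names by identifier the 2 largest rises and the 2 largest falls without overlap. A further 5 transcripts, described by value (the most abundant raised and fallen, the pair also raised by ATF6α(N), and that with the smallest p for the difference from XBP1(S)), were picked once their values had been seen. The groups and lists were chosen with earlier results of these data known. Depth was 1850805 to 19619140 estimated reads per library.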

Additional observations from a re-analysis of the deposited data

Results flagged for a closer look

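In 30 groups of 6 libraries (levels of the transcripts described, depth, composition and summed levels in the 2 genotypes), 1 held a library far from the others relative to the range of its group. The transcript with the clearest difference between the effects with ATF6α(N) and with XBP1(S) was at 24.3 CPM in [WT + ATF6α(N)] library 2, and the nearest of the other 5 libraries was at 17.5 CPM. Chance sets apart about 1 in 20 such groups. Without this library the log2 fold change of the transcript went from 1.33 to 1.44. That was the upper end of the range of 1.28 to 1.44 found when each of the 12 libraries was left out in turn. The call of the transcript held in every case (highest adjusted p = 1.38e-07, edgeR).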

How the results depend on the processing

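No paired analysis was possible because the library columns carry no replicate numbers. Summing counts per gene was not run, since identifiers were not paired with genes. Calls for AXER loss with ATF6α(N), 109, became 71 when edgeR tested against a fold of 1.2 (12 fallen) and 17 with whole estimates only (12 raised, 5 fallen). Library totals gave 53 raised and 43 fallen, DESeq2 52 fallen, and leaving out the pair of [KO + ATF6α(N)] libraries that stood apart 16 fallen. Without a factor the 116 calls became 65 against a fold of 1.2 and 21 with whole estimates. The 63 raised in both backgrounds became 33 with library totals, 39 against a fold of 1.2 and 5 with whole estimates, and the 16 fallen in both became 6, 3 and, without the pair of libraries, 10. The median effect with ATF6α(N) of transcripts raised without a factor, 0.98, became 0.85 in DESeq2, 1.22 against a fold of 1.2 and 1.29 with whole estimates, and that of the fallen, -0.68, became -0.55 in DESeq2 and -0.46 with whole estimates. The 10 calls for the difference from XBP1(S) became 208 in DESeq2, 0 with library totals, 5 against a fold of 1.2, 0 with whole estimates and 6 without the pair. The fit with whole estimates tested fewer transcripts, and the test against a fold of 1.2 had a stricter null hypothesis. Each setting chose anew the transcripts called without a factor, so the medians given here are over different sets. Against a fold of 1.2 the fit and the fold changes were those of the main test, and only the set differed. For the other settings, the cause of the changes was not tested. With 1 library left out in turn, calls with ATF6α(N) were 90 to 109 (70 to 88 raised, 16 to 24 fallen), those without a factor 91 to 117, those raised in both 50 to 63, those fallen in both 12 to 16, those for the difference from XBP1(S) 5 to 16 and those for the difference from no factor 0 to 0, with medians of 0.94 to 1.06 and -0.72 to -0.57. Of 209 alternative values for the 9 transcripts described, 195 kept direction and call and 14 lost the call, all for ENSORLT00000018637.2, whose adjusted p reached 0.436 in limma-voom, and none reversed (0). Standard errors were larger for low transcripts, where depth and spread between libraries were not separated.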
